A study of Caenorhabditis elegans with 2 samples.

Results

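The genes described are 7 nuclear pore genes of Caenorhabditis elegans: npp-1, npp-3, npp-6, npp-8, npp-13, npp-18 and rae-1. They were chosen because a ChIP-seq peak of the homeobox protein CEH-100, in the joint conservative set, had its summit no more than 500 bp from a start of the gene. They are 7 of 28 nuclear pore genes found in the annotation, among 19973 protein-coding genes on the 6 nuclear chromosomes. ChIP-seq precipitates chromatin with an antibody and sequences the bound DNA, so that a peak marks a stretch of genome where reads piled up over a control. The animals were whole young adults of strain RW12233, 64 hours old and grown from first-stage larvae that had been starved after bleaching for synchrony. An insertion made with CRISPR at ceh-100 itself adds TY1, EGFP and FLAG tags to the protein, and the antibody was directed against GFP. All animals carried the tag in the allele st12233, on chromosome II, and control libraries were not analysed here. Sonication left fragments of 200 to 800 bp, which limits how finely a summit is placed. The study has a single group of 2 biological replicates, so nothing was compared between conditions. Whole animals were used, and the cells that contributed to a peak cannot be told apart.

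Nuclear pore complexes are large channels in the nuclear envelope through which proteins and RNA pass between nucleus and cytoplasm. They are built from nucleoporins in repeated copies. Inner ring and Y complex subunits form the scaffold, channel subunits carry phenylalanine-glycine repeats that bind transport receptors, and further subunits sit on the cytoplasmic face, on the nuclear face or in the membrane. Importins and exportins carry cargo through the channel, and the GTPase Ran gives the traffic its direction.

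The DNA under the summits is shown first, because the sequences at npp-1, npp-3, npp-8 and npp-18 hold short CG-rich words. Most of the words marked below were picked because they were more frequent under other CEH-100 peaks than beside them. No single one of them was present at all of these genes. Each line gives a window of ce11 centred on a summit, 5′ to 3′ on the strand of the gene. Capitals mark matches, on either strand, to the words ACGCGC or GAGCGC or CGCGCC or AGCGCG or AACGCG or CCCGCC or TCGCGC, which overlap one another where they run together. The windows are chrIV:9858250-9858350 on the plus strand for npp-1, chrII:11874828-11874928 on the minus strand for npp-3, and chrIV:1595937-1596037 on the minus strand for npp-8. For npp-18, on the plus strand, they are chrIII:13296429-13296529 for the peak of higher signal and chrIII:13296628-13296728 for the other.
npp-1: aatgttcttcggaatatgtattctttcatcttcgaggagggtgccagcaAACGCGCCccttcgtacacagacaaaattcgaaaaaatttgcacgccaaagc
npp-3: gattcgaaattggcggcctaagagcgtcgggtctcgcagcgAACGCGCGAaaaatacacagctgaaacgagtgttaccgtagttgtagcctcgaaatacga
npp-8: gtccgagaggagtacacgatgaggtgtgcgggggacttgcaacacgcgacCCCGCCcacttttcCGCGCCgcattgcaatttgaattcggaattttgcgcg
npp-18, peak of higher signal: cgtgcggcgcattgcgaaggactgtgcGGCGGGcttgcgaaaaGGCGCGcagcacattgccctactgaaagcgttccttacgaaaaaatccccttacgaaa
npp-18, peak of lower signal: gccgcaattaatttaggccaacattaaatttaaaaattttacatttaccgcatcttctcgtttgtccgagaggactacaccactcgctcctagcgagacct

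In npp-1 and npp-3 the capitals form 1 run close to the centre of the window. In npp-8 and npp-18 they form 2 separate words, and the lower peak of npp-18 holds none. The first 5 of the words were the 6-mers, merged with their reverse complements, whose share of summit windows exceeded that of windows 300 bp to either side by the most, taken over all nuclear conservative peaks except those of the 7 genes. Their higher share at summits than in flanking windows therefore follows from the choice. At least 1 of these 5 was present at the highest peak of 5 of the 7 genes. For all 1685 nuclear conservative summits the share was 35.6%, for the 943 of them within 500 bp of a start 41.9%, for flanking windows 6.44% and for windows of the same length at 29773 annotated start positions 5.31%. ACGCGC was found at npp-1, npp-3 and rae-1, against 17.3% of summit windows near starts and 1.27% of start windows. CGCGCC was found at npp-1, npp-8 and npp-18, against 14.7% of summit windows near starts and 1.20% of start windows. GAGCGC was found at rae-1 only, and AGCGCG at none of the 7 genes, against 15.9% and 13.9% of summit windows near starts. AACGCG was found at npp-1 and npp-3, against 12.6% of windows at all 1685 nuclear conservative summits. Its share of summit windows near starts was higher than this 12.6%. The windows at npp-6 and npp-13 held none of the 5 words. A match is a description of the letters and was not tested as a site.

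A further 7 words were counted in the same windows. TAATTA, a word bound by many homeodomains, was in none of the 7 summit windows. It was in 2.33% of summit windows near starts against 4.16% of start windows. Its core ATTA was present at npp-13, against 39.9% of summit windows near starts. CCCGCC was present at npp-8 and npp-18 (8.59% of summit windows near starts, 1.78% of start windows). TCGCGC, which overlaps ACGCGC where both are read, was present at npp-3 (11.0% and 1.19%). TATAAA was in none of the 7 windows, against 4.67% of summit windows near starts and 13.7% of start windows. GAGAGA was also in none of them, against 12.7% of summit windows near starts and 7.23% of start windows. TTTTTT, read with its complement AAAAAA, was present at npp-1, npp-13 and npp-18, against 24.3% of summit windows near starts and 37.1% of start windows.

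The share of G and C was higher at most of these summits than beside them. G and C made up 58.4% of the summit window at npp-8, 56.4% at npp-18, 51.5% at npp-3, 49.5% at rae-1, 48.5% at npp-6, 44.6% at npp-1 and 39.6% at npp-13. The mean of the windows 300 bp to either side was lower at 6 of the 7 genes, and ranged there from 29.2% at npp-1 to 40.1% at npp-8. At npp-13 it was 42.1%, above the summit. The median over the 7 genes, 49.5%, was close to that of all 943 summits near starts, 47.5% (quartiles 42.6% and 52.5%), and 85.5% of those summits likewise exceeded their flanks. CG dinucleotides numbered from 6 at npp-6 to 13 at npp-3, more than the mean of the flanks at all 7 genes, beside a median of 7 at the 943 summits and 4 in their flanks. The words above are themselves rich in G and C, so word counts and composition are not separate observations.

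**Figure D1:**
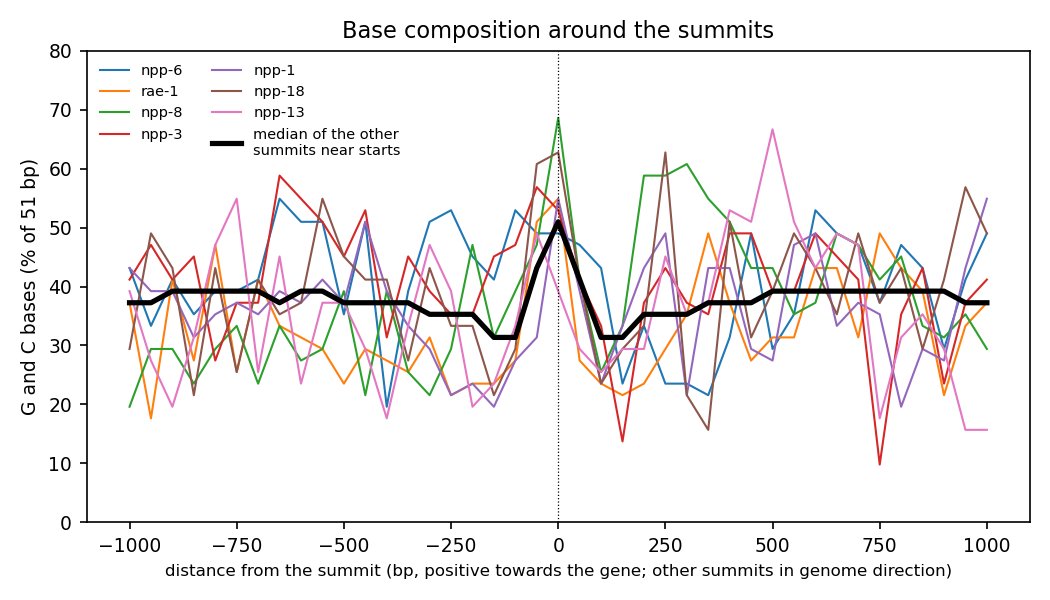
Share of G and C in 51 bp windows (y axis, percent) against distance from the summit (x axis, bp) for the highest peak of each of the 7 genes (coloured lines) and the median of the other conservative summits within 500 bp of a start (black). Distances are positive towards the gene for the 7 genes but run in genome direction for the other summits, so the sides of the black line are not upstream and downstream. At the summit itself the values run from 39.22% at npp-13 to 68.63% at npp-8.

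A peak near the start was present at 25% of the nuclear pore genes, against 5.56% of all protein-coding genes. Since the genes were picked by this criterion, the count describes the choice and was not tested. Among scaffold genes of the inner ring 3 of 4 were members (npp-3, npp-8 and npp-13), and among genes of the Y complex 2 of 9 (npp-6 and npp-18). The central channel had 1 of 3 (npp-1) and the cytoplasmic side 1 of 4 (rae-1). None of 3 nuclear-side, 3 membrane and 2 unclassed genes was a member. These classes follow what is known of the vertebrate and yeast counterparts and were drawn up with the values known. By chromosome, 3 of 9 pore genes on I, 1 of 5 on II, 1 of 7 on III and 2 of 6 on IV were members, and the single pore gene on V was not.

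Signal, the enrichment value that the authors' peak caller gave each peak, has no unit and spanned from 4443 to 107 over the highest peaks of the 7 genes. Its values are not scaled between lists, so a mean over replicates describes 2 separate lists. The joint conservative set, where a peak must recur between replicates, ranked the npp-6 peak at 4 of its 1685 nuclear peaks and the npp-13 peak at 1214. The median over the 7 genes was 377, beside 142 for the 943 summits near starts. In 6 of 7 genes the value exceeded that median, and in 5 of 7 it exceeded the upper quartile. Only the highest peak of each of the 7 genes was used, whereas the 943 include lower peaks beside higher ones. The lower npp-18 peak of 46.2 is among the 943, so the 2 measures are not alike.

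**Figure D2:**
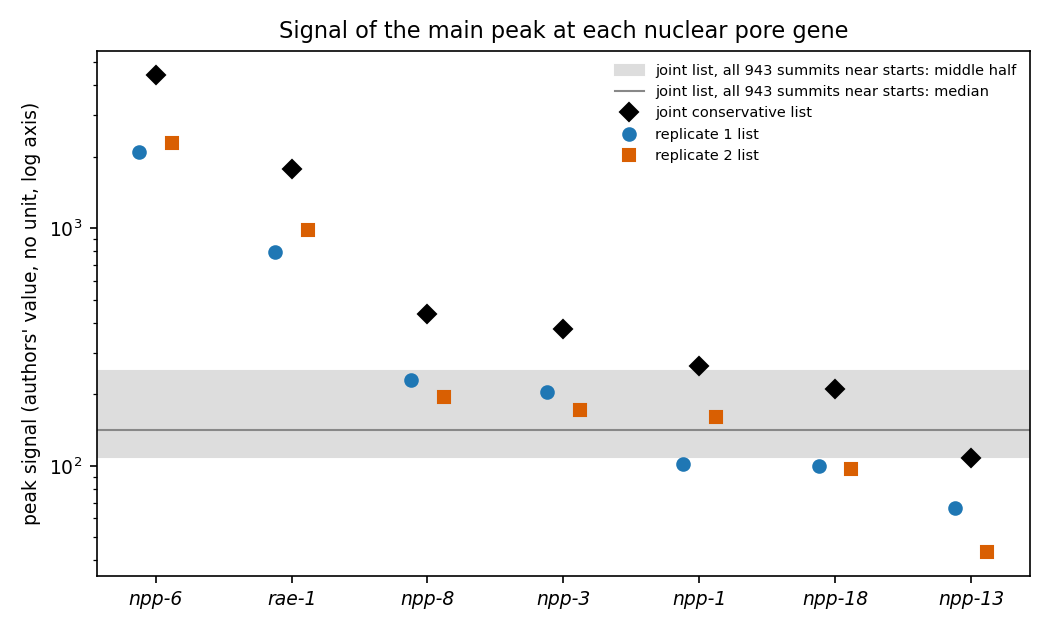
Peak signal (y axis, authors' value without unit, log axis) at the highest peak of each gene (x axis, ordered by the joint value). Diamonds give the joint conservative list, circles replicate 1 and squares replicate 2, and the lists are not scaled to each other. The band and line give the quartiles and the median, 142, of the joint signal at 943 summits near starts. Signals of npp-6 and rae-1 stand above all others and npp-13 lies lowest in every list.

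The Y complex genes held the highest peak and the next to lowest. npp-6 encodes the C. elegans counterpart of Nup160, a core subunit of the Y complex (WBGene00003792, chromosome I, 5176829 to 5182801, plus strand). Its peak, 5176026 to 5176606, was 581 bp wide and had a joint signal of 4443. Replicate 1 gave 2101 and replicate 2 gave 2299.7 (mean 2201 ± 140.3, SD, n = 2), and the peak ranked 4 in either thresholded list. The summit stood at the same base in both replicates, 412 bp upstream of the npp-6 start. It was therefore the most distant of the 7, and it lay closer to another gene: the start of spd-5, which encodes a centrosome scaffold protein and is read from the other strand, was 237 bp away, and the summit fell in an intron of spd-5. A further conservative summit inside spd-5, with a signal of 532, lay 682 bp farther from npp-6. Which of the 2 genes the npp-6 peak relates to was not tested.

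npp-18 encodes the Seh1 counterpart, a small Y complex subunit (WBGene00003804, chromosome III, 13296853 to 13298993, plus strand). It was the only one of the 7 with 2 conservative peaks. The higher, 13296396 to 13296511, had a joint signal of 211 with its summit 374 bp upstream of the start. Replicate 1 gave 100.1 and replicate 2 gave 96.8 (mean 98.5 ± 2.37, SD, n = 2), the closest values between replicates among the 7 genes. The lower peak, 13296520 to 13296835, had a joint signal of 46.2 and its summit 175 bp upstream, 199 bp from the first. In each replicate's ranked list, the peak overlapping it was the same as the one overlapping the higher peak, with a summit 374 bp upstream in replicate 1 and 383 bp in replicate 2. No separate replicate summit thus stood at 175 bp, and the lower peak was absent from the authors' other joint set. Among the 943 summits near starts, 94 shared their replicate peaks with another such summit in this way. The intergenic space upstream of npp-18 is wide, with 3762 bp to the opposite-strand gene set-25, which encodes a histone H3 lysine methyltransferase.

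Of the inner ring genes, npp-8 and npp-3 lay between these values and npp-13 below them. npp-8 encodes the Nup155 counterpart (WBGene00003794, chromosome IV, 1567921 to 1595824, minus strand). Its peak, 1595894 to 1596093, had a joint signal of 436, and its summit lay 163 bp upstream of the start in the joint list and in both replicates. Replicate 1 gave 229 and replicate 2 gave 194 (mean 212 ± 24.8, SD, n = 2). The nearest gene upstream, ced-2, an adaptor gene of cell corpse engulfment, is read from the other strand and began 1331 bp from the summit. npp-8 spans 27904 bp, and no conservative summit lay inside it.

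npp-3 encodes the Nup205 counterpart (WBGene00003789, chromosome II, 11865431 to 11874788, minus strand). Its peak, 11874777 to 11874979, reached across the annotated start and had a joint signal of 377. Replicate 1 gave 205 and replicate 2 gave 171 (mean 188 ± 23.7, SD, n = 2). The summit lay 90 bp upstream of npp-3, the shortest distance among the 7, and 107 bp upstream in replicate 2. The start of top-2, a DNA topoisomerase II gene on the other strand, lay 270 bp from the same summit, so that the peak sits in a divergent promoter of 359 bp but nearer to npp-3.

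npp-13 encodes the Nup93 counterpart (WBGene00003799, chromosome I, 2097346 to 2123443, plus strand) and had the weakest peak. At 2096984 to 2097299 it had a joint signal of 107, below the median of summits near starts, and a global irreproducible discovery rate (IDR, the expected share of irreproducible peaks) of 0.00395. Replicate 1 gave 66.2 at rank 854 of 1166, and replicate 2 gave 43.4 at rank 1294 of 1333 (mean 54.8 ± 16.1, SD, n = 2). In replicate 2 its IDR was 0.00915. The summit lay 204 bp upstream of the start in the joint list, 203 bp in replicate 1 and 195 bp in replicate 2. The nearest upstream gene, iglr-3, lies on the other strand 3549 bp away.

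npp-1 encodes the counterpart of the channel nucleoporin Nup54 (WBGene00003787, chromosome IV, 9858488 to 9862119, plus strand). Its peak, 9858235 to 9858387, had a joint signal of 263 and a summit 188 bp upstream of the start. Replicate 1 gave 102 and replicate 2 gave 161 (mean 131 ± 41.6, SD, n = 2), which was the largest ratio between replicates among the 7 genes, 1.58. The gene upstream, K07F5.12, is read from the same strand and ends 420 bp before npp-1 begins.

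rae-1 encodes an mRNA export factor that docks on the cytoplasmic side of the pore and binds the Nup98 nucleoporin in vertebrates (WBGene00003803, chromosome I, 10026188 to 10030059, plus strand). Its peak, 10025926 to 10026233, covered the annotated start and had a joint signal of 1781, rank 25 of the nuclear peaks. Replicate 1 gave 798 and replicate 2 gave 984 (mean 891 ± 132, SD, n = 2). The summit lay 105 bp upstream in the joint list and 94 bp in replicate 2. The gene upstream, eak-6, is read from the same strand and ends 349 bp before rae-1 begins.

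Both replicates held all 7 peaks above the authors' threshold, where 4.15% of all protein-coding genes had a thresholded summit of replicate 1 within 500 bp and 4.89% one of replicate 2. The joint set was made from the same replicates, so this is no independent check. Signal was higher in replicate 2 at 3 genes, npp-1, npp-6 and rae-1, and higher in replicate 1 at the other 4. Over summits near starts with a peak in both ranked lists, 57.6% had the higher signal in replicate 2. The larger value exceeded the smaller by 1.03 to 1.58 times, beside a median of 1.19 and a 90th percentile of 1.60 at the 937 summits near starts with a peak in both ranked lists. The order of npp-6, rae-1 and npp-8 at the top and npp-13 at the bottom was the same in both replicates. npp-8 and npp-3 were adjacent, with 436 and 377 in the joint list, and npp-8 was the higher in each replicate, by about the SD between replicates. npp-1 and npp-18 had 102 and 100.1 in replicate 1 and 161 and 96.8 in replicate 2, so that their order rests on replicate 2. Summit positions moved by at most 17 bp between replicates.

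All 7 highest summits lay upstream of the start of the pore gene, at 90 to 412 bp with a median of 188 bp. Set against the nearest start of any gene, 6 of 7 were upstream, beside 80.4% of the 943 summits near starts, since the npp-6 summit is downstream of the spd-5 start. A start on the other strand lay within 500 bp of the summit at 2 of 7 genes, npp-6 and npp-3, close to the background of 25%, 236 of 943 summits. At the remaining 5 the nearest opposite-strand start was between 1331 bp (npp-8) and 7269 bp (npp-1) away. Among annotated non-coding genes other than piRNA genes and pseudogenes, the closest was a snoRNA gene 1582 bp from the npp-3 summit. Distances to piRNA genes were not measured. No conservative summit lay within the transcribed span of any of the 7 genes.

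**Figure D3:**
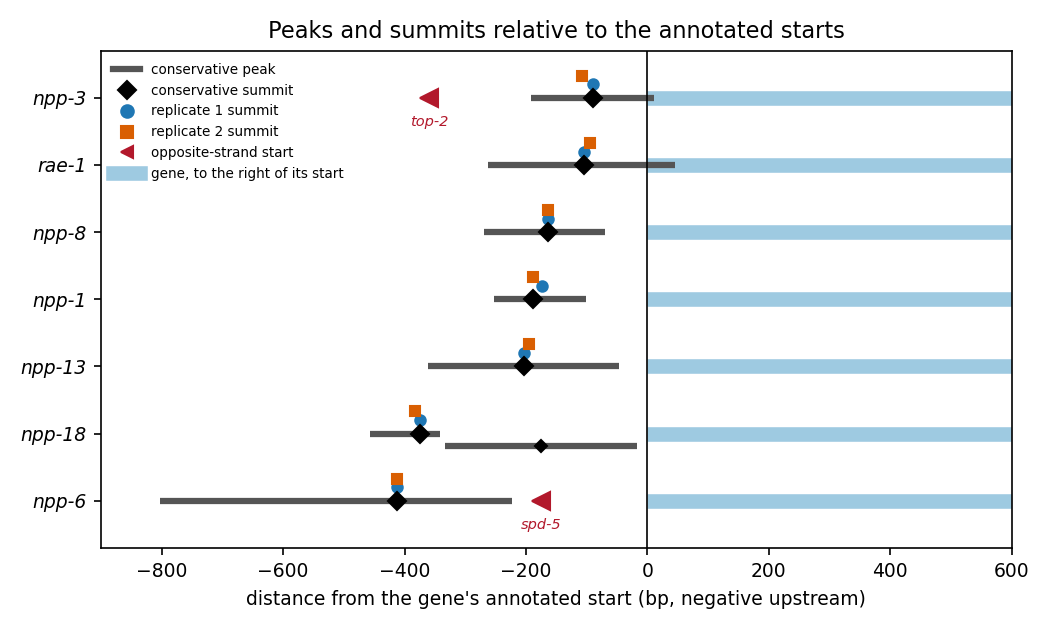
Position of each conservative peak (grey bar) and summit (diamond) relative to the annotated start of the gene (x axis, bp, negative upstream), with the summits of replicate 1 (circle) and replicate 2 (square). Genes run to the right from 0, and red triangles mark opposite-strand starts within 500 bp of the summit. All summits lie upstream of 0, from 90 bp at npp-3 to 412 bp at npp-6.

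The other 21 nuclear pore genes had their nearest conservative summit between 507 and 109114 bp away, with a median of 14647 bp, and at 12 of them it was over 10000 bp away. The distance for the whole pore list had a median of 6104 bp, beside 27308 bp for all protein-coding genes. Just outside the 500 bp rule was npp-7, the counterpart of the nuclear-side nucleoporin Nup153, with a summit 507 bp upstream and a signal of 148. That summit was 254 bp from the start of unc-40, a netrin receptor gene. In replicate 2 npp-7 had a thresholded peak of 74.1 within 500 bp, where replicate 1 had 20.1 in its ranked list at an IDR of 0.681. Just inside the rule was npp-6 at 412 bp. npp-12, the membrane nucleoporin gp210, had a summit of signal 1143 at 649 bp, which was 190 bp from the start of T23H2.3. npp-16 and npp-5 followed, with summits of signal 85.8 at 1773 bp and 126 at 3299 bp, both downstream of the start.

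Ranked peaks, most of them under the threshold, were present near many of the other pore genes. In replicate 2 those at npp-14 and npp-7 passed the threshold. The ranked lists, which also hold peaks of poor reproducibility, had a summit within 500 bp at 15 of the 21 in replicate 1 and at 12 in replicate 2, with 9 in both and 3 in neither. Of all protein-coding genes 33.1% had such a summit in replicate 1 and 26.1% in replicate 2. Signals there were 17.2 to 39.2 in replicate 1 (median 25.9) and 18.7 to 92.2 in replicate 2 (median 31.9). In replicate 1 none reached the 66.2 of npp-13, while in replicate 2 npp-14 (92.2), npp-7 (74.1) and npp-12 (67.9) exceeded its 43.4. The value at npp-14, the Nup214 counterpart, had an IDR of 0.000133 in replicate 2, that at npp-7 0.00137 and that at npp-12 0.242. In replicate 1 npp-14 had 38.5 at an IDR of 0.691, and it had no conservative summit within 500 bp.

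Genes of nuclear transport, which work through the pore, also had peaks near starts. Of 22 importin, exportin, Ran and mRNA export genes, 10 (45.5%) had a conservative summit within 500 bp of a start, against 5.56% of all genes. Beside the 25% of pore genes this was not tested, and within 250 bp the order turned, with 6 pore genes (21.4%) and 3 transport genes (13.6%). With each summit given only to its nearest gene the shares were 21.4% of pore genes and 22.7% of transport genes. The nearest summit of the transport genes had a median distance of 991 bp. All 10 summits were upstream of the transport gene's own start, and 5 shared the window with an opposite-strand start. Of the 943 summits near starts, 236 had an opposite-strand start within 500 bp. Measured to the nearest start of any gene, which is a different measure, 80.4% of the 943 lay upstream. Whether the transport genes differ from this background was not tested. Joint signals at the 10 transport genes ran from 102 to 356 with a median of 153. These signals were below those of npp-6, rae-1, npp-8 and npp-3, and their median was near that of summits near starts.

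All 3 importin alpha genes, whose products recognise nuclear localisation signals, were among them, with 356 at ima-2, 322 at ima-1 and 133 at ima-3. Of the importin beta family, imb-3 had 327 and imb-1 had 195, and imb-2 had its nearest summit 16004 bp away. ran-1, the Ran GTPase gene, had 127 with a summit 448 bp upstream, and ran-5, a gene of the Ran-binding group, had 173. The mRNA export genes nxf-1, hel-1 and nxt-1 had 116, 108 and 102. The 3 exportin genes had none within 500 bp, with summits 824 bp from xpo-1, 1159 bp from xpo-3 and 3800 bp from xpo-2, nor did the 3 aly genes, which encode mRNA export adaptors. Of the 10 transport genes with a conservative summit, 7 had a thresholded summit in replicate 1 and 7 in replicate 2. nxt-1 had a thresholded peak in neither replicate, with 52.3 in replicate 1 and 44.3 in replicate 2. ima-1, ran-1, ran-5, nxf-1 and imb-1 share their summit window with dvc-1, dkc-1, R12C12.6, C15H11.11 and mfsd-13.1 in that order.

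**Figure D4:**
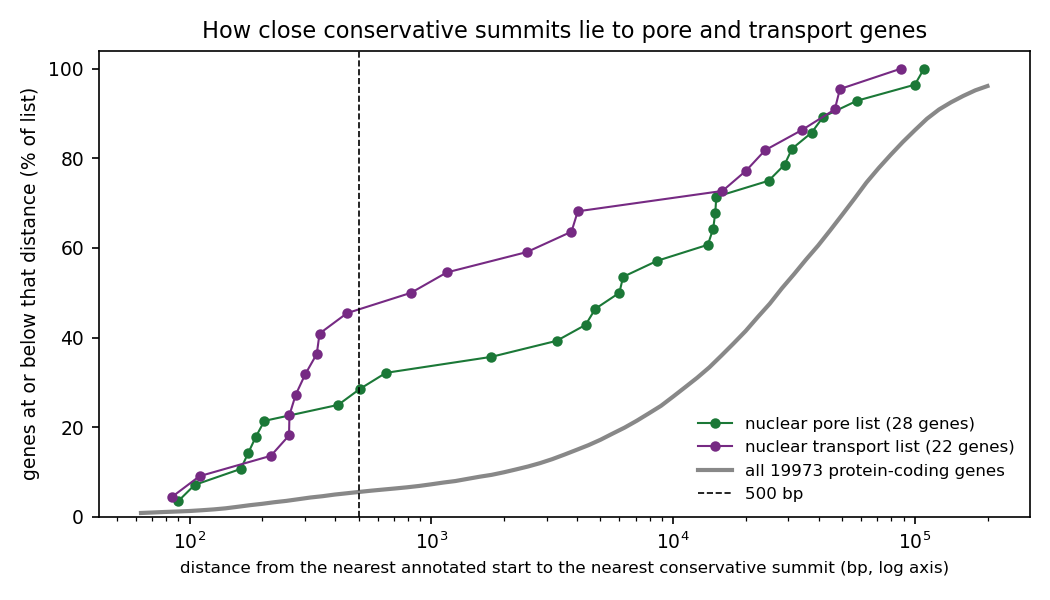
Cumulative share of genes (y axis, percent of the list) whose nearest conservative summit lies within a given distance of a start (x axis, bp, log axis). Green points are the 28 nuclear pore genes, purple points the 22 transport genes and the grey line all 19973 protein-coding genes. At 500 bp (dashed) the lists hold 25% and 45.5%, against 5.56% of all genes.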

How the data were processed

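Peaks are those that the authors called for both replicates with the ENCODE processing for transcription factors on ce11, per the labels. Names of aligner and caller were not given in the sources used here. The deposited signal value per peak carries no unit and no scaling between lists. The deposited score is the authors' scaled IDR score (830 to 1000), and the ranked lists give the deposited −log10 of the global IDR, limited to 5. No read counts are given, so depth is unknown and no interval could be set. From 7 lists, summits were computed as column 2 plus column 10, peaks off the 6 nuclear chromosomes were left out, and summits within 500 bp of any of 29784 protein-coding starts (Ensembl release 115, WBcel235, whose chromosome names and coordinates are those of ce11) were assigned to genes. A peak matched a replicate's peak when they overlapped by at least 1 bp. The members and gene lists were chosen with earlier results of these data known. Of the list names, 2 pore and 2 transport names were not in the annotation under that name and were dropped. In the series-wide ranked list 2 columns of per-sample values were left unused. Named genes were the 7 members, genes sharing their peaks, the 4 other pore genes with the nearest summits, and transport genes with a peak. npp-14, imb-2, the exportin and aly genes and upstream neighbours were named after their values were seen, and the 6-mers and pore classes were also added then. No test was made: the rule used the same peaks, and the single group of 2 replicates gives no contrast. Sequences come from the RefSeq WBcel235 genome. Sequence of 3 members is not reported here. Assignment and word search were tested on simulated data. Calculations used Python 3.11.15, numpy 2.4.6, pandas 2.3.3 and matplotlib 3.10.9.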

Additional observations from a re-analysis of the deposited data

How the results depend on the processing

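The count of pore genes with a peak was 7, and 6 to 9 over the alternatives. It was 8 in the authors' other joint set, which added npp-14, 6 at a global IDR of at most 0.001, which lost npp-13, and 6 within 250 bp or with each summit given only to its nearest gene, both of which lost npp-6. Within 250 bp npp-18 rested on its lower peak of 46.2. With a 1000 bp window 9 genes had a peak, with npp-7 and npp-12 added, and leaving out 1 replicate gave 7 to 9. Of all protein-coding genes, 7.28% had a peak in the 1000 bp window and 6.10% in the other joint set, against 5.56% in the main setting. All 7 members kept a peak without replicate 1 and without replicate 2. The count of members sharing a peak with an opposite-strand start was 0 within 250 bp and 1 with the nearest gene only, against 2. The transport count of 10 was 6 at the stricter IDR, 3 within 250 bp, 5 with the nearest gene only, and 7 to 8 without a replicate, where all genes gave 3.79%, 3.56%, 4.38% and 4.15 to 4.89%. Summit offsets kept their sign in all 28 alternatives. Counts of the 7 fixed words were within 1.5 times in 9 of 14 alternatives, and ATTA was at 4 of 7 genes in the wider windows. In narrower and wider windows, tried after seeing the data, 5 of 7 genes again held at least 1 of the 5 6-mers, and counts of each 6-mer were within 1.5 times in 8 of 10. In the wider windows GAGCGC was at 2 genes and AGCGCG at 1. No paired analysis was possible because there is a single group. Without read counts, depth limits every statement on weak peaks.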

Other observations

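The joint signal of the highest peak at each of the 7 genes was 0.981 to 1.07 times the sum of the 2 replicate signals. For the lower npp-18 peak the same ratio was 0.234, with the replicate peaks of the higher one in the sum. Peak widths also differed from most of the lists: 316 bp was the width of 66.4% of nuclear conservative peaks and of 98.5% of ranked peaks of replicate 1, and 264 bp that of 97.3% of ranked peaks of replicate 2. Among the highest peaks of the 7 genes, npp-13 had the width of 316 bp, while the others had widths of 116 bp (npp-18), 153 bp (npp-1), 200.0 bp (npp-8), 203 bp (npp-3), 308 bp (rae-1) and 581 bp (npp-6).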
